A study of Mus musculus with 19 samples.

Results

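Immature CD4-committed thymocytes were taken from a CITE-seq survey of the mouse thymus, which counted RNA and, through antibodies carrying DNA tags, 111 surface proteins in the same cells. A cell belonged to them if at most 15% of its RNA unique molecular identifiers (UMIs, 1 for each captured molecule) were mitochondrial, at least 200 genes were detected, at least 1 UMI came from *Zbtb7b* and at least 1 from *Cd69* or *Itm2a*, and none came from *S1pr1*, *Klf2*, *Foxp3*, *Zbtb16*, *Cd8b1* or *Mki67*. Of 85389 barcodes, 79569 passed the first 2 conditions, 5867 of these had a *Zbtb7b* UMI, and 1196 met the whole rule. Of the 1196 cells, 878 (73.4%) carried a single *Zbtb7b* UMI, 234 carried 2 and 84 carried 3 or more, so that in most cells 1 molecule decided the choice. The cells were thus chosen by measured RNA, that of 9 genes in the cells themselves, so the levels of its genes, and of RNA in general against other cells, are descriptions here and were not tested.

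Positive selection turns CD4+CD8+ double-positive (DP) thymocytes into CD4+ or CD8+ T cells. *Zbtb7b* encodes ThPOK, the transcription factor that fixes the CD4+ helper fate and holds down *Runx3*, the factor of the CD8+ fate. *Cd69* and *Itm2a* are switched on by signals of the T cell receptor (TCR) during selection. *Klf2* and *S1pr1* come on late, when cells become able to leave the thymus, so their absence keeps mature cells out, while *Foxp3*, *Zbtb16* and *Mki67* mark regulatory T cells, innate-like T cells and dividing cells. *Cd40lg*, a ligand through which helper T cells activate B cells, is the one marker given for these cells that the rule did not use. In the mouse GRCm38 build *Zbtb7b* (ENSMUSG00000028042) lies on the minus strand of chromosome 3 from 89377644 to 89394776, *Cd40lg* (ENSMUSG00000031132) on the plus strand of chromosome X from 57212143 to 57224042, *Itm2a* on the minus strand of chromosome X from 107397099 to 107403376, and *Cd69* on the minus strand of chromosome 6 from 129267325 to 129275436.

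Thymocytes came from 17 female mice aged 4 to 8 weeks: 5 wild-type C57BL/6 (B6) mice and 2 mice of each of 6 lineage-restricted genotypes. CD4-fated mice were AND and OT-II mice, which carry TCR transgenes that recognize MHCII, and MHCI-/- mice, which lack *B2m*. CD8-fated mice were F5 and OT-I mice, with transgenic TCRs that recognize MHCI, and MHCII-/- mice, which lack *H2-Ab1*. AND and F5 mice were also *Rag1*-/-, so that they rearrange no TCR genes of their own, whereas MHC-deficient and wild-type mice had diverse TCRs. Cells of the MHC-deficient mice and of B6 1, 2 and 3 had been sorted as CD5+TCRβ+, and the others were unsorted. The first experiment held B6 1, AND 1 and F5 1, the second B6 2 and 3, AND 2, F5 2 and the MHC-deficient mice, and the last B6 4 and 5, OT-I and OT-II, so that the OT family and the last experiment cannot be told apart. Each mouse was 1 sample, with a pair of lanes summed for B6 4 and for B6 5.

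The 19 lanes held 9758886 to 42235980 RNA UMIs and 4299533 to 31974945 antibody UMIs in cells that passed. Immature CD4-committed cells had a median of 2091 RNA UMIs in B6 5 and up to 6113 in B6 1, and 13 mice held at least 10 of them. Their *B2m*, the gene removed in MHCI-/- mice, was at 47.4 and 31.8 counts per 1000000 UMIs (CPM) in the 2 MHCI-/- mice and at 187 CPM or more in every other mouse. The antibody to TCR Vβ5, the β-chain segment of the OT-I and OT-II receptors, took 125 to 244 of 10000 antibody UMIs in these 4 mice and 3.26 to 73.3 elsewhere. Some libraries stood apart. In the last experiment the cells of B6 5, OT-II 2 and OT-I 2 were shallow, with medians of 2091, 2222 and 2836 RNA UMIs against 5793 in B6 4, 4520 in OT-II 1 and 5955.5 in OT-I 1, so depth divided the mice of each of these groups. The immature CD4-committed cells of B6 5 held 664 CPM of genes of preselection DP cells (*Rag1* and others), against 40.1 to 123 CPM in every other mouse. Myeloid genes summed to 2482 and 938 CPM in OT-II, against 51.6 to 613 CPM elsewhere, erythroid genes to 2104 CPM in OT-II 1 against 0 to 51.9 CPM, and B cell genes to 231 CPM in OT-I 1 against 0 to 28.3 CPM. The list of γδ T cell genes, which holds *Trdc*, summed to 459 and 414 CPM in OT-I and 351 and 209 CPM in AND, against 10.9 to 85.7 CPM elsewhere. In 6 cells (0.502%) UMIs of myeloid and B cell genes outnumbered those of TCR and CD3 genes, 1 each in B6 2, B6 4, B6 5, OT-I 1, OT-II 1 and OT-II 2. AND 2 had a median of 1030 antibody UMIs in these cells against 2718 to 7154 elsewhere. Of 78660 barcode sequences 874 occurred in more than 1 library, none of them as an immature CD4-committed cell in both, and 18 of the cells (1.51%) were called doublets.

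The first question was whether cells with this RNA pattern arise as often when selection is restricted to the CD8 fate. They numbered 97, 177, 55, 127 and 43 in B6 1 to B6 5, 51 and 81 in AND, 147 and 187 in MHCI-/- and 77 and 49 in OT-II mice. Among CD8-fated mice there were 54 and 38 in OT-I mice, 7 and 6 in MHCII-/- mice and none in F5 mice. Because a rule of single UMIs depends on the depth of each cell, the share was also computed as its expectation after thinning cells to 1500 UMIs. Cells under 1500 UMIs were left out, which kept 5083 of 9646 cells in B6 5 and 2486 of 3178 in OT-II 2, against 3675 of 3754 in OT-I 1. The share was then 1.36% and 1.66% of cells in AND, 1.97% and 2.69% in MHCI-/- and 0.928% and 1.27% in OT-II mice. It was 0.635% and 0.813% in OT-I mice, 0.0668% and 0.0742% in MHCII-/- mice and at most 0.00036% in F5 mice. After thinning, every CD4-fated mouse was thus above every CD8-fated mouse. Without thinning they overlapped, with OT-I mice at 1.44% and 1.1% and OT-II mice at 1.32% and 1.54%. Thinning can also bring in cells outside the rule, where it removes their UMIs of an excluded gene such as *Klf2*. F5 1 thus had a thinned share of 0.00036% with no cell that met the rule. The mature CD4 gate given below requires *Zbtb7b* with *S1pr1* or *Klf2*. It held 3.88% and 1.76% of cells in OT-II and 1.598% and 1.13% in OT-I mice. The part of such cells in the thinned shares was not tested.

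The thinned share averaged 1.64% ± 0.622 (SD, n = 6) in CD4-fated and 0.265% ± 0.361 (SD, n = 6) in CD8-fated mice, a difference of 1.38 percentage points (two-sided exact permutation test over mice, p = 0.00216, the smallest that 924 splits can give). Without thinning the means were 2.53% ± 1.48 and 0.476% ± 0.629. The gap was not alike in the 3 families: 1.51 percentage points between AND and F5, 2.26 between MHCI-/- and MHCII-/- and 0.374 between OT-II and OT-I, whose mice did not overlap after thinning but did without it; the difference between families was not tested. Within experiments the CD4-fated and CD8-fated means were 1.36% and 0.00036% in the first (1 mouse each), 2.1% and 0.047% in the second (3 each) and 1.1% and 0.724% in the last (2 each). No cell met the rule among 2646 and 4528 cells of the F5 mice, which allows a share of up to 0.113% and 0.0663% by counting error alone. Sorted wild-type mice averaged 1.64% ± 0.285 (SD, n = 3), while B6 4 and B6 5, which were unsorted, had 0.533% and 0.715%.

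The genotypes also differed in what else the *Zbtb7b*-positive cells were. In AND mice only 10.8% and 9.15% of cells with a *Zbtb7b* UMI met the whole rule, and 84.1% and 80.7% of them carried *Klf2*, the gene of late maturation, against 27.4% to 69.4% in wild-type mice. In MHCII-/- mice 41.0% and 43.5% of cells with *Zbtb7b* carried *Zbtb16*, the innate-like factor PLZF, against at most 3.46% in any other mouse. In OT-I mice 31.0% and 31.7% of the few cells with *Zbtb7b* met the whole rule, as high a share as in B6 2 (30.1%). These shares depend on depth and were not tested. The authors report that *Zbtb7b* also rises in CD8-fated cells, to a lower level and for a shorter time. In CD8-fated mice, meeting the rule therefore does not by itself show commitment to the CD4 fate.

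Further gates, also set on RNA, gave the cells before, after and beside this stage. The preselection DP gate (16464 cells) took *Cd8b1*- and *Arpp21*-positive cells without *Cd69*, *Itm2a* or *Mki67*. The signaled DP gate (5476 cells) required *Cd8b1*, *Rag1* or *Arpp21*, and *Cd69* or *Itm2a* without *Zbtb7b*. The mature CD4 gate (2530 cells) required *Zbtb7b* with *S1pr1* or *Klf2*, and the immature CD8 gate (2725 cells) *Cd8b1* with *Runx3* or *Nkg7*, and *Cd69* or *Itm2a*. The signaled DP, mature CD4 and immature CD8 gates also allowed no UMI of *Foxp3*, *Zbtb16* or *Mki67*. Signaled DP and immature CD8 cells had none of *S1pr1* or *Klf2*, and immature CD8 cells none of *Zbtb7b* or *Rag1*. Mature CD4 cells had none of *Cd8b1*. *Cd40lg* was at 144, 197, 171.03, 100.3 and 259 CPM in the immature CD4-committed cells of B6 1 to B6 5. Its mean of 174 ± 59.5 CPM (SD, n = 5) stood against 0.892 ± 1.25 in preselection DP, 16.5 ± 11.9 in signaled DP, 62.2 ± 25.3 in mature CD4 and 28.1 ± 20.6 CPM in immature CD8 cells. All 5 values lay above every wild-type value of the other gates. Among the other 8 mice with at least 10 such cells, *Cd40lg* was higher in them than in the signaled DP, mature CD4 and immature CD8 cells of the same mouse in 7. The exception was OT-II 1, a CD4-fated mouse, at 8.04 CPM against 32.4 CPM in its mature CD4 cells.

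Genes of the CD4 program fell into several patterns across the gates in wild-type mice. *Gata3*, which acts upstream of *Zbtb7b*, was at 294 ± 127 CPM (SD, n = 5) against 192 ± 53.5 in signaled DP and 92.5 ± 29.0 in mature CD4 cells. *Tox*, needed for the CD4 lineage, was at 720.2 ± 149 CPM against 645 ± 123 and 259 ± 72.7 CPM. *Lef1*, a factor of the Wnt and TCF family, was at 973 ± 203 CPM against 455 ± 66.5 in signaled DP and 509 ± 79.5 in mature CD4 cells, its 5 values between 757 and 1188 CPM. *Satb1*, a chromatin organizer, stayed near its signaled DP level (2982 ± 381 and 3068 ± 459 CPM) and was at 1105 ± 195 in mature CD4 cells. *Cd4* itself was at 277 ± 68.0 CPM, between the 527 ± 67.2 CPM of preselection DP and the 67.7 ± 20.2 CPM of immature CD8 cells. Other genes of the list were lower than in signaled DP cells: *Tcf7* at 588 to 766 against 1054 to 1741 CPM, *Myb* at 6.27 to 51.9 against 211 to 458 and *Bcl11b* at 680 to 861 against 924 to 1251. All 14 genes of the list summed to 7631 ± 714 CPM, against 8194 ± 837 in signaled DP and 7548 ± 699 in preselection DP cells. The sum was 3840 ± 459 in mature CD4 and 5119 ± 995 CPM in immature CD8 cells.

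Genes of the CD8 program were low. *Runx3* was at 35.2 ± 19.8 CPM (SD, n = 5), within the range of signaled DP cells (47.3 ± 15.9), while immature CD8 cells, in part chosen for it, held 375 ± 100.2 CPM. *Nkg7*, a gene of cytotoxic granules, was at 0.470 ± 0.646 CPM and at 0 in 3 of the 5 mice. *Cd8a*, which sits beside the excluded *Cd8b1* and encodes its partner chain, was at 45.8 ± 32.5 CPM against 1397 ± 346 in signaled DP cells. All 12 genes of the list summed to 243 ± 68.6 CPM, against 2100 ± 359 in signaled DP and 2014 ± 296 CPM in immature CD8 cells. The sum includes *Cd8a*, which made up 1397 CPM of it in signaled DP cells. It also includes *Runx3* and *Nkg7*, by which immature CD8 cells were chosen. The gaps in the sum are therefore tied in part to how the gates were set.

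In wild-type mice the survival genes *Il7r* and *Bcl2* were highest in these cells, whereas the chemokine receptor genes *Ccr9* and *Ccr7* lay between signaled DP and mature CD4 cells. *Il7r*, the receptor chain for the survival cytokine IL-7, was at 332 to 435 CPM, above every wild-type value in the other gates, with a mean of 385 ± 44.3 CPM (SD, n = 5) against 59.1 ± 40.3 in signaled DP, 235 ± 43.9 in mature CD4 and 123 ± 33.6 in immature CD8 cells. *Bcl2*, which protects from cell death, was at 529 to 933 CPM, again above all values of the other gates (177 ± 25.9, 268 ± 58.5 and 368 ± 117). In OT-II mice, by contrast, *Il7r* was higher in mature CD4 cells (115.1 against 102 and 69.9 against 35.1 CPM), as was *Bcl2* in OT-II 2 (195.8 against 158 CPM). *Ccr9*, which holds cells in the cortex, was at 1007 ± 475 CPM, between 1903 ± 317 in signaled DP and 160 ± 132 in mature CD4 cells. *Ccr7*, which draws cells to the medulla, was at 278 ± 23.9 CPM, between 50.2 ± 33.5 and 417 ± 75.5 CPM. Among TCR response genes *Egr1* varied from 117 to 623 CPM, and *Cd5* was at 443 ± 39.8 CPM against 393 ± 118.7 in signaled DP and 306 ± 75.5 CPM in mature CD4 cells. *Id2*, the only gene of the innate-like list above a few CPM, was at 280.2 to 597 CPM, while the defining genes *Klrb1c*, *Tbx21* and *Ifng* were at 0 in all 5 mice.

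Cells just inside and outside the rule were examined for its *Zbtb7b* and *Cd8b1* conditions. With 1 *Zbtb7b* UMI, CD8a protein was at 50.8 ± 7.36 per 10000 antibody UMIs (SD, n = 5 wild-type mice), and with 2 or more at 58.4 ± 35.5 (n = 4). In the 2338 wild-type cells that met every other condition but had no *Zbtb7b* UMI it was at 231 ± 22.6. In 165 cells kept out by a single *Cd8b1* UMI it was at 57.3 ± 13.3. *Cd40lg* was at 167 and 176 CPM with 1 and with 2 or more *Zbtb7b* UMIs, at 94.0 CPM with none and at 147 CPM with 1 *Cd8b1* UMI.

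Surface proteins did not enter the rule or the other gates. They could be tested against the other gates in the 13 mice with at least 10 cells in each, with mouse as a block. In B6 1, 2 and 3 and the MHCI-/- mice, however, the sort as CD5+TCRβ+ had used CD5 and TCRβ protein to choose the cells of every gate. The part of this sort in the CD5 and TCRβ differences between gates was not tested. Against signaled DP cells 31 of 111 antibodies (27.9%) differed, 19 higher and 12 lower (edgeR's quasi-likelihood test with Benjamini-Hochberg adjustment). Scaling by total antibody UMIs in place of TMM gave 36 calls with 14 higher and moved the median of all antibodies from -0.03 to -0.22 on the log2 scale. CD8a was lower in all 13 mice, at 81.4 ± 31.5 against 599 ± 118.6 per 10000 (log2 change -2.74 ± 0.23 SE, adjusted p = 4.82e-08); its partner chain is the product of the excluded *Cd8b1*, so part of this difference is tied to the rule. TCRβ was higher in all 13, at 129 ± 47.6 against 39.4 ± 15.2 (1.93 ± 0.17, adjusted p = 6.39e-08), as was the costimulatory receptor ICOS, at 156 ± 91.5 against 54.5 ± 26.3 (1.62 ± 0.14, adjusted p = 6.39e-08). CD127, the protein of *Il7r*, was at 13.5 ± 8.11 against 5.69 ± 6.60 (1.64 ± 0.24, adjusted p = 3.82e-05). CD5, whose level tracks TCR signal strength, rose by 1.00 ± 0.15 and CD4 by 0.68 ± 0.14 on the log2 scale, each in 13 of 13 mice (adjusted p = 3.82e-05 and 0.000845). Neuropilin-1 fell by 1.28, CD25 by 1.31, the integrin chain CD49d by 0.89 and the homing receptor CD62L by 0.67, CD25 in 12 mice and the others in all 13. CD24, lost with maturation, did not pass the test (-0.21, adjusted p = 0.248), and neither did CCR7 protein (0.11, adjusted p = 0.355). CD69 (2.09 higher) and CD8b (3.19 lower) follow the rule and are given as description.

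Against mature CD4 cells 26 of 111 antibodies (23.4%) differed, 16 higher, or 10 of 26 higher when scaled by total antibody UMIs. CD8a was still higher on the immature cells in all 13 mice, with 30.3 ± 21.0 per 10000 on mature cells (1.73 ± 0.18 SE, adjusted p = 9.75e-07). CD24 was higher in all 13, at 147 ± 42.1 against 82.2 ± 43.3 (1.11 ± 0.11, adjusted p = 5.43e-07), and so was the costimulatory receptor CD28 (0.98 ± 0.07, adjusted p = 5.82e-08). The mature CD4 gate required *S1pr1* or *Klf2*, which the rule sets to 0 in the immature cells, so this comparison is tied in part to how the gates were set. Among the 10 antibodies that were lower were CD62L at 85.2 ± 38.8 against 258 ± 135 (-1.43 ± 0.18, adjusted p = 8.53e-06), the complement regulator CD55 at 2.21 ± 1.00 against 10.6 ± 8.21 (-1.97 ± 0.25, adjusted p = 6.59e-06), integrin β7 (-1.42 ± 0.24, adjusted p = 0.000182) and Sca-1 (-1.43 ± 0.31, adjusted p = 0.00235). TCRβ was lower by a smaller amount in all 13 mice (-0.28 ± 0.07, adjusted p = 0.00769) and CD5 higher in 11 (0.28 ± 0.07, adjusted p = 0.00402). CD4 differed by -0.02 (adjusted p = 0.819) and CD127 by 0.16 (adjusted p = 0.304), neither of which passed.

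Against immature CD8 cells 19 of 111 antibodies (17.1%) differed, 6 of them higher. CD4 was at 767 ± 224 against 468 ± 201 per 10000, higher in 13 of 13 mice (0.83 ± 0.11 SE, adjusted p = 5.5e-05), and CD8a at 81.4 ± 31.5 against 401 ± 83.0, lower in 13 of 13 (-2.31 ± 0.17, adjusted p = 2.83e-08). The immature CD8 gate required *Cd8b1*, which the rule sets to 0, and the reverse holds for *Zbtb7b*. The CD8a and CD4 differences are therefore tied in part to how the gates were set. CD5 (0.62, adjusted p = 0.000821), CD127 (0.59, adjusted p = 0.00767) and TCRβ (0.53, adjusted p = 0.0181) rose, and the integrins β7 (-1.57, adjusted p = 0.00111) and CD103 (-0.72, adjusted p = 0.00757) fell; CD103 is a CD8-lineage integrin that binds epithelial cadherin. Without mouse as a block, the comparisons with signaled DP, mature CD4 and immature CD8 cells called 17, 9 and 3 antibodies.

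The cells also varied among themselves along the change from *Ccr9* to *Ccr7*. Of 1196 cells 449 had *Ccr9* without *Ccr7* UMIs (early) and 98 had *Ccr7* without *Ccr9* (late). In the 3 mice with at least 10 of both, B6 2 and the MHCI-/- mice, 6 of 111 antibodies (5.41%) differed. CD8a was at 18.8 ± 7.03 on late and 83.6 ± 19.97 per 10000 on early cells (-2.23 ± 0.19 SE, adjusted p = 0.000206). In the same 3 mice signaled DP cells were at 597 to 707 and mature CD4 cells at 13.2 to 16.1 per 10000, so that late cells were near the mature CD4 level and early cells far below the signaled DP level. CD28 fell by 0.83, while TCRβ rose by 0.55, GITR, a receptor of the TNF family, by 0.94 and Sca-1 by 0.77 (adjusted p = 0.0329 each). CD8b, tied to the rule, was 2.17 lower. CD4 (0.08, adjusted p = 0.918), CD24 (-0.49, adjusted p = 0.124) and CD62L (0.02, adjusted p = 0.989) did not pass. These calls rested on few mice: without MHCI-/- 1 only CD8b was called and CD8a had an adjusted p of 0.0529, without MHCI-/- 2 CD8a and CD8b were called, and scaling by total antibody UMIs left 3 calls, 1 of them higher.

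How far CD8a had been lost could be read per cell. A cell was called CD8a-low if the CD8a share of its antibody UMIs was under the geometric midpoint between the medians of signaled DP and mature CD4 cells of wild-type mice in its experiment (90.8, 75.02 and 110.2 per 10000, in the order given above). By this measure 3.74% ± 4.31 (SD, n = 5) of wild-type signaled DP, 97.3% ± 1.37 of mature CD4 and 16.9% ± 6.04 of immature CD8 cells were CD8a-low. Of immature CD4-committed cells 86.6%, 87.6%, 76.4%, 85.8% and 83.7% were CD8a-low in B6 1 to B6 5. The shares were 64.7% and 48.1% in AND, 67.3% and 69.4% in MHCI-/-, 53.2% and 55.1% in OT-II and 59.3% and 76.3% in OT-I mice. The 6 CD4-fated mice, at 59.7% ± 8.64 (SD), all lay below the 5 wild-type mice, at 84.0% ± 4.51.

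CD4-fated and OT-I mice differed by -8.14 percentage points, less than the SD between mice in either group (8.64 and 12.1; two-sided exact permutation test, p = 0.321; the smallest p that 28 splits can give is 0.0357). The gap between wild-type and CD4-fated mice, a comparison added after the data were seen, was 24.4 percentage points (two-sided exact permutation test, p = 0.00216, the smallest of 462 splits). It was present within each experiment with no overlap, at 86.6% against 64.7%, 82.0% against 61.6% and 84.8% against 54.2%. In early cells alone it was 72.7% ± 10.1 against 46.8% ± 5.17 (difference 25.9), and with a threshold 3/4 of the way toward the signaled DP median it narrowed to 5.81 (exact permutation p = 0.0216). Since the measure is a share of each cell's antibody UMIs, other antibodies enter it. In fits scaled by TMM, CD8a on all immature CD4-committed cells was higher than in wild-type mice by 2.00 ± 0.40 in OT-II (adjusted p = 0.0113), by 0.46 in MHCI-/- (adjusted p = 0.999) and by 0.15 in AND mice (adjusted p = 0.749), the last being 1.05 (adjusted p = 0.00482) when scaled by total antibody UMIs.

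**Figure D1:**
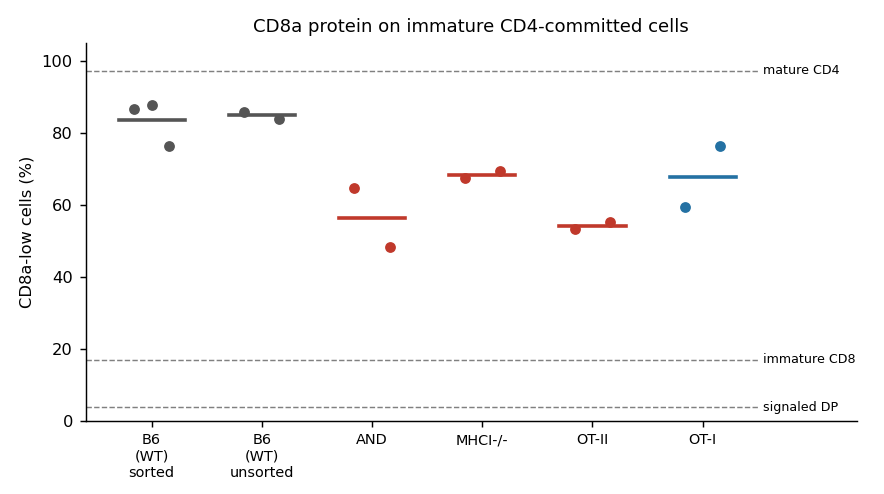
Percent of cells that were CD8a-low (y axis, from 0) in each mouse, for immature CD4-committed cells and for 3 other RNA gates. All wild-type points for immature CD4-committed cells (76.4% to 87.6%) lie above all CD4-fated points (48.1% to 69.4%).

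Shares of cells with a UMI of 12 genes, thinned to 1500 UMIs, were compared between the 6 CD4-fated and the 2 OT-I mice, and none passed a two-sided exact permutation test after adjustment over the 12 genes. *Cd40lg* was detected in 20.4% ± 5.97 (SD, n = 5) of the cells in wild-type, 16.6% ± 8.79 (n = 6) in CD4-fated and 13.3% in OT-I mice, and in 0.188% of wild-type preselection DP cells; without thinning the 3 shares were 41.9%, 33.1% and 28.2%. Median depths were 2091 to 6113 UMIs in these cells and 1352 to 4969 in preselection DP cells. *Runx3* was detected in 5.09% of the cells in wild-type, 7.37% in CD4-fated and 17.7% in OT-I mice (exact permutation p = 0.0714, adjusted p = 0.429). In the 2 OT-I mice, however, it was at 10.1% and 25.2%, beside 9.30% and 26.5% in their own preselection DP cells, which thus had shares of about the same size. *Nkg7* was detected in 0.0656%, 0.137% and 2.27% (exact permutation p = 0.0357, the smallest possible, adjusted p = 0.429). Without thinning it was found in 5.56% of 54 and 2.63% of 38 cells of the OT-I mice, so few cells carried the value. The OT-I mice, at 2.51% and 2.04%, lay below their own preselection DP cells (6.69% and 10.8%). *Il7r* was at 34.6% in wild-type, 17.8% in CD4-fated and 17.4% in OT-I mice, and *Gata3* at 31.6%, 28.2% and 19.8%. Preselection DP cells of the OT-I mice held *Gata3* in 19.0% and 36.6% and *Il7r* in 1.70% and 5.57%. Preselection DP cells are themselves T cell precursors, so their shares are given for comparison and do not measure free RNA.

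OT-I mice were the only CD8-fated mice with at least 10 such cells, so the test of RNA between lineages, with family as a covariate, came down to OT-II against OT-I mice. It called 8 of 5605 genes (0.143%), while 257 had an unadjusted p under 0.05. With replicate number as a block, 84 of 6586 genes were called, these 8 among them. None of the 8 was in the lists of the CD4 or CD8 program. *Trac* and *Trdc*, TCR constant genes whose counts may include transgene transcripts and share sequence with relatives, were called higher and lower in OT-II, with the segment *Trbv12-1* also lower. *Lyz2*, *Tyrobp*, *Fcer1g* and *Alox5ap*, genes of myeloid cells, were called higher; *Lyz2* was at 172 and 710.4 CPM in the OT-II mice and 0 in both OT-I mice. *Rnf43*, a ubiquitin ligase that limits Wnt receptors, was at 281 and 175 CPM in OT-II and 2.96 and 0 CPM in OT-I mice (6.57 ± 0.75 SE, adjusted p = 0.000605). Without the 6 cells rich in myeloid or B cell UMIs, 4 genes were called: *Trac*, *Trdc*, *Rnf43* and *Trbv12-1*. The call of *Trbv12-1* was lost without AND 2 (adjusted p = 0.0571), OT-II 1 (0.331) or OT-I 2 (0.176), that of *Trdc* without OT-II 1 (0.107), that of *Lyz2* without OT-I 1 (0.109), that of *Fcer1g* without OT-II 1 (0.232) and that of *Alox5ap* without AND 2, OT-II 1 or either OT-I mouse (0.0647 to 0.586).

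No gene of the CD4 program was called among 11 tested (median log2 change 0.04, against -0.01 over all genes), none of 4 of the CD8 program (median -0.92, all 4 negative), none of 16 of the TCR response (-0.15), none of 12 of the calcineurin and NF-κB branches (-0.19), none of 11 of maturation and migration (-0.25) and none of 6 of agonist selection (-1.53). The size of change that could be seen was limited: in simulated counts of this design 14.3% of genes changed by 1 on the log2 scale, 69.6% by 2 and 93.2% by 4 were recovered. *Gata3* differed by 0.04 ± 0.42 SE, *Cd40lg* by -0.57 ± 0.91, *Cd4* by -0.72 ± 0.38, *Runx3* by -0.90 ± 0.50 and *Ccr7* by -0.13 ± 0.39 (adjusted p = 0.999 each). *Cd5* was at 343 and 342 CPM in OT-II and 160.0 and 56.5 CPM in OT-I mice (1.54 ± 0.41, adjusted p = 0.33). *Egr1* differed by -0.17 and *Nfatc1*, a calcineurin-driven factor, by 0.29. No antibody of 111 was called (0%), with 8 at an unadjusted p under 0.05 and 2 called by DESeq2. With replicate number as a block, which ran with depth in the OT mice, 12 antibodies were called, CD62L and CD25 among them. In the main fit CD62L differed by -1.20 (adjusted p = 0.197) and was called without either AND mouse (adjusted p = 0.0112 and 0.0359). CD8a differed by 0.37 and CD4 by -0.05 (adjusted p = 0.994 each).

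Comparisons with wild-type mice, added once the number of cells per mouse was known, used group means over the 13 mice, with no term for experiment. OT-I and OT-II mice were set against B6 4 and B6 5 of their own experiment, and AND and MHCI-/- mice against B6 1 of the first and B6 2 and 3 of the second. Between OT-II and the unsorted B6 4 and B6 5, 16 of 6161 genes (0.26%) were called, 13 of them higher, with 305 at an unadjusted p under 0.05. The 3 that fell were *Il7r*, *Bcl2* and *Tnfrsf4*. Early cells, with *Ccr9* but no *Ccr7* UMIs, were 46 of 77 and 38 of 49 in OT-II and 35 of 127 and 22 of 43 in B6 4 and B6 5. The fit pools early and late cells, and the part of this mix in the calls was not tested. *Il7r* was at 102 and 35.1 CPM in OT-II against 425 and 332 CPM in wild-type cells (-2.19 ± 0.37 SE, adjusted p = 0.00905). *Bcl2* was at 209 and 158 against 933 and 529 CPM (-1.88 ± 0.34, adjusted p = 0.0167), and *Tnfrsf4*, which encodes the costimulatory receptor OX40, at 5.36 and 0 against 82.8 and 41.5 CPM (-4.0 ± 0.76, adjusted p = 0.0205). Neither pair of mice overlapped the other for any of the 3. All 3 calls were lost without B6 4 (adjusted p = 0.305, 0.394 and 0.491, with 2 genes called in all). *Bcl2* was also lost without OT-II 1 (0.118) or OT-II 2 (0.0736), and *Tnfrsf4* without OT-II 1 (0.396) or with DESeq2 (0.22).

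Of the 13 genes higher in OT-II, *Rnf43* was at 281 and 175 against 10.0 and 20.8 CPM (4.48 ± 0.51 SE, adjusted p = 8.88e-05), and *Trac* at 11092 and 8025 against 860.4 and 1059 CPM. The other 11 were *Lyz2*, *Tyrobp*, *Fcer1g*, *Alox5ap*, *Ctss*, *Ms4a6b*, *Ifitm3*, *Bzrap1*, *H2-Aa*, *H2-Ab1* and *H2-Eb1*, the last 3 encoding MHC class II chains; 2 of 4 tested genes of the myeloid list were called (median 4.65). Without the cells rich in myeloid or B cell UMIs 7 genes were called, and *Il7r* (-2.14), *Bcl2* (-1.86), *Tnfrsf4* (-3.98), *Trac* and *Rnf43* were among them. The CD4 program had 0 of 12 called (median -0.39, all genes 0.00), maturation and migration 2 of 11 lower, and agonist selection 1 of 7 lower (median -1.73). *Ccr7* (102 and 123 against 256 and 291 CPM, adjusted p = 0.316), *Cd4* (-1.13, adjusted p = 0.519) and *Runx3* (77.7 and 78.9 against 21.3 and 20.8 CPM, 1.97, adjusted p = 0.437) did not pass. Of 111 antibodies 4 (3.6%) were called, all higher: the transgenic Vβ5, CD8a (136 and 118 against 53.5 and 50.1 per 10000), CD25 (8.36 and 8.05 against 2.92 and 2.75, 2.24, adjusted p = 0.0113) and, tied to the rule, CD8b. The calls of CD8a and CD25 were lost without any 1 of the 4 mice (adjusted p from 0.0612 to 0.117 for CD8a), and only Vβ5 was called without B6 5 or without OT-II 2. Scaling by total antibody UMIs called 9, of which 3 were higher.

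In OT-I mice, which are CD8-fated, 2 of 6161 genes (0.0325%) were called against the unsorted wild-type mice, both higher TCR genes (*Trdc* and *Trbv12-1*), with 256 at an unadjusted p under 0.05. *Trdc* made up 399.99 and 320.2 of the 459 and 414 CPM of γδ T cell genes in OT-I mice; of the same list, *Sox13* was at 47.4 and 28.3 CPM (0 to 42.9 elsewhere) and *Tcrg-C1* at 8.89 and 28.3 CPM (0 to 13.3 elsewhere). The part of γδ T cells in the call of *Trdc* was not tested. *Runx3* was at 88.9 and 254 CPM against 21.3 and 20.8 (2.86 ± 0.56 SE), just short of the threshold at an adjusted p of 0.0589. In the same OT-I mice it was at 127 and 158 CPM in signaled DP and at 108 and 219 CPM in mature CD4 cells. *Cd5* was at 160.0 and 56.5 against 444 and 415 CPM (-1.73 ± 0.38, adjusted p = 0.12). *Il7r* was at 157 and 160.1 CPM (-1.19, adjusted p = 0.421) and *Bcl2* at 341 and 292 CPM (-1.13, adjusted p = 0.417). The CD4 program had 0 of 12 called (median -0.34), the CD8 program 0 of 4 (0.53) and agonist selection 0 of 7 (-1.50). On the surface 2 of 111 antibodies (1.8%) were called, Vβ5 and CD62L, the latter at 136 and 164 against 35.2 and 55.5 per 10000 (2.31 ± 0.34, adjusted p = 0.00106), a call that held in all 9 alternatives tried. Other cells of these mice differed in the same direction, with CD62L at 261 and 281 against 85.5 and 95.1 on signaled DP and at 162 and 180.2 against 56.1 and 81.5 on immature CD8 cells. CD8a, at 114 and 89.7 against 53.5 and 50.1, did not pass (1.60, adjusted p = 0.0614; 0.0484 when scaled by total antibody UMIs, with which 5 antibodies were called, 3 of them higher).

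Against the sorted wild-type mice, few features of MHCI-/- cells were called. The 1 gene called of 6161 (0.0162%; 59 at an unadjusted p under 0.05) was *B2m* itself, and its call was lost without either MHCI-/- mouse (adjusted p = 0.075 and 0.388). *Gata3* (239 and 224 against 247, 222 and 222 CPM), *Ccr7* (335 and 287 against 313, 260.0 and 269) and *Ccr9* (767 and 756 against 749.6, 761 and 757) lay within or close to the wild-type values. The CD4 program had 0 of 12 and the TCR response 0 of 17 called (medians -0.04 and -0.03). Of 111 antibodies 3 (2.7%) were called, all lower: NK-1.1 (2.07 and 1.80 against 54.3, 10.7 and 10.3 per 10000), FcεRIα and CD140a. B6 1, the wild-type mouse from another experiment than the MHCI-/- mice, was the highest for each of them. Without it, which left the mice of 1 experiment, the same 3 were called with smaller changes (NK-1.1 -2.42 in place of -3.49, FcεRIα -1.64 in place of -2.31 and CD140a -1.42 in place of -2.21). All 3 calls were lost without either MHCI-/- mouse, and 9 and 7 antibodies were called without B6 2 and without B6 3.

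AND cells, unsorted and *Rag1*-/-, were compared with the sorted B6 1, 2 and 3, so genotype and sort cannot be told apart. Of 6161 genes 13 (0.211%) were called, 7 of them higher. *Hltf*, which encodes a DNA translocase of the repair machinery and lies on chromosome 3 from 20057811 to 20118490, was at 1428 and 1226 CPM against 24.1, 36.1 and 25.5 (5.43 ± 0.30 SE, adjusted p = 4.84e-10). *Il7r* was again lower, at 102 and 125 CPM against 435, 355 and 378 (-1.81 ± 0.32, adjusted p = 0.0113). *Samhd1*, which breaks down deoxynucleotides, was at 31.1 and 45.5 against 294, 314 and 244 CPM (-2.89 ± 0.49, adjusted p = 0.00925), and *Nrgn*, a calmodulin-binding protein, at 4.45 and 2.27 against 114, 89.8 and 21.8 (-4.70 ± 0.76, adjusted p = 0.00635). *Drosha*, of microRNA processing, fell by 1.62, and *Apoe*, a lipid carrier of macrophages and other cells, was at 365 CPM in AND 1 but 18.2 CPM in AND 2 (0 to 5.48 CPM in wild-type mice). *Trac*, *Trdc* and *Trbc1* were also higher. *Trdc* made up 325 and 198 of the 351 and 209 CPM of γδ T cell genes in AND mice. The sorted wild-type mice had sums of 17.5 to 43.7 CPM. AND mice, being *Rag1*-/-, rearrange no TCR genes of their own, γ and δ genes included. The source of their *Trdc* counts was not tested. Only *Hltf* and *Trdc* were called in all 11 alternatives, and leaving out any 1 of the 5 mice left 3 to 6 genes called and ended the call of *Il7r* (adjusted p from 0.0565 to 0.59).

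*Bcl2* in AND cells was at 867 and 807 CPM, within the range of the sorted wild-type mice (838, 874 and 797 CPM). The CD4 program had 0 of 12 called (median 0.07), maturation and migration 1 of 11, and the interferon list 0 of 4 (median -1.46, all 4 negative). Of 111 antibodies 19 (17.1%) were called, 10 of them higher, but scaling by total antibody UMIs called 59, of which 58 were higher, and moved the median from 0.01 to 1.01. CD127 was called lower (-1.44, adjusted p = 0.00795), yet its values of 7.96 and 28.2 per 10000 straddled the 27.3, 17.6 and 18.7 of the wild-type mice, and it was at -0.24 (adjusted p = 0.684) when scaled by total antibody UMIs. NKp46 (2.84), CD137 (1.71) and B220 (1.97) were called higher, and CD102 lower (-1.80), under each of the 10 alternatives. NKp46 was at 50.2 and 131 per 10000 in AND 1 and AND 2 against 5.36, 5.90 and 5.59 in B6 1, 2 and 3, CD137 at 18.5 and 61.6 against 6.07, 4.61 and 5.25, and B220 at 8.42 and 16.8 against 1.497, 1.519 and 1.481. AND 2, with the fewest antibody UMIs per cell, was also high for P-selectin, a protein of platelets and endothelium (67.3, against 8.61 in AND 1 and 4.85 to 5.97 in the sorted wild-type mice). Whether the calls move with that rise was not tested. CD102 was at 187 and 168 against 400.4, 289 and 320 per 10000.

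**Figure D2:**
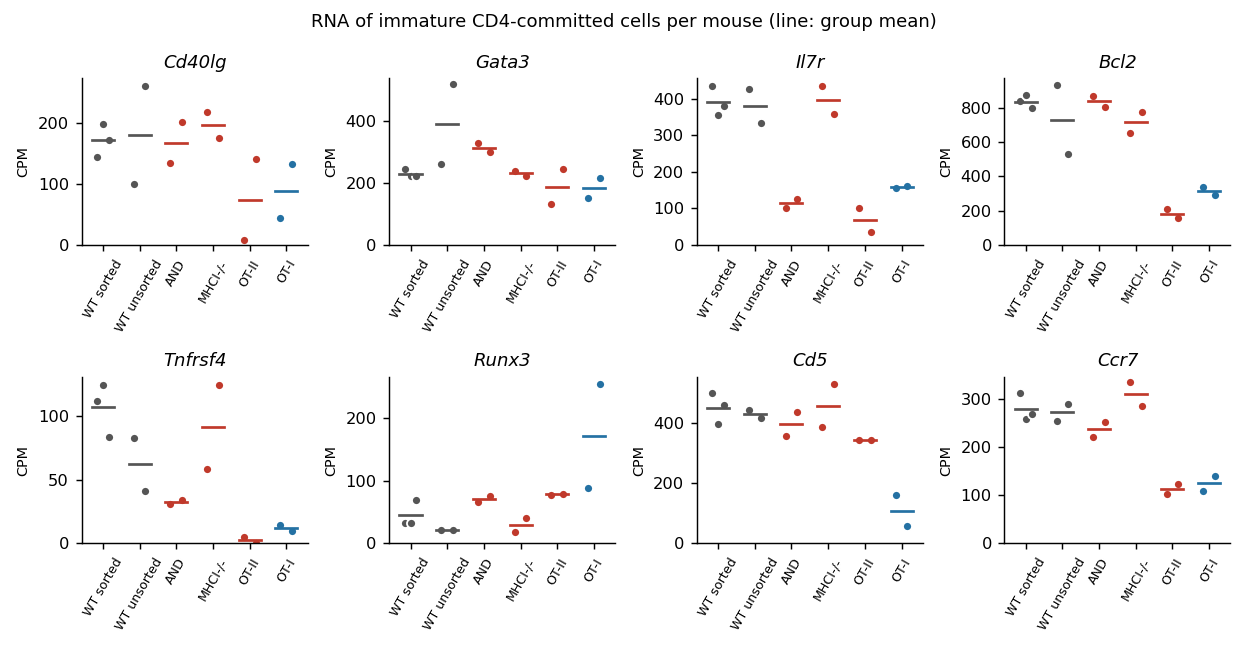
RNA of immature CD4-committed cells in CPM (y axes) in each mouse with at least 10 of them, by group. *Il7r* is at 35.1 to 160.1 CPM in AND, OT-II and OT-I mice and at 332 CPM or more in wild-type and MHCI-/- mice.

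Among the 13 mice with at least 10 such cells, *Il7r* was at 35.1 to 160.1 CPM in the 6 AND, OT-II and OT-I mice, which carry a TCR transgene, and at 332 to 435 CPM in the 7 wild-type and MHCI-/- mice. The few cells of the MHCII-/- mice, which also have diverse TCRs, were at 429 and 154.9 CPM, the second within the range of the transgenic mice. Mature CD4 cells were divided in the same way, at 40.3 to 115 CPM in the 6 transgenic and 177 to 293 CPM in the 7 other mice, so the gap was not particular to the immature cells. This split of the mice was noticed in the data and was not tested as such, and the levels in the immature cells pool early and late ones. Of these transgenic mice only AND were *Rag1*-/-, so cells of OT-I and OT-II mice can carry TCRs of their own besides the transgenic one, and the OT mice and AND mice were measured in different experiments.

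The 13 cells of the MHCII-/- mice, too few to enter a fit, met the rule but differed from the rest in the summed genes of the CD8 program. They also differed in some genes of the innate-like list. The 12 genes of the CD8 program summed to 1093 and 1497 CPM, against 173 to 452 CPM in the other 13 mice with such cells. *Nkg7* was at 364 and 594 CPM, against at most 20.7 CPM elsewhere, whereas *Runx3*, at 193 and 51.6 CPM, lay within the 18.2 to 254 CPM of the other mice. The 6 innate-like genes summed to 2057 and 619.6 CPM, against 96.5 to 730.1 CPM elsewhere, so that only the sum of MHCII-/- 1 stood out. *Id2*, present in every mouse with such cells, made up 1243 and 465 CPM of these sums. Of the other innate-like genes, *Il2rb* was at 193 and 103 CPM, against at most 9.11 CPM elsewhere. *Cxcr3*, a chemokine receptor of effector cells, was at 299.97 and 51.6 CPM against at most 1.1 CPM elsewhere. *Klrb1c*, which encodes NK-1.1, was at 299.97 CPM in MHCII-/- 1 and 0 in every other mouse. NK-1.1 protein was at 59.6 per 10000 in MHCII-/- 1, above the 1.80 to 54.3 of the other mice, and at 24.2 in MHCII-/- 2, within them. *Nkg7* and *Klrd1* (85.7 and 309.8 CPM), of the CD8 program list, are also genes of NK and innate-like T cells, and the part of such cells in these values was not tested. CD8a protein was at 148 and 268 per 10000, above the 38.1 to 136 of every other mouse. *Cd40lg* was at 257 CPM in one and 25.8 CPM in the other. With 7 and 6 cells these are values of few molecules, and no test was run.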

How the data were processed

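The authors deposited counts of RNA and antibody UMIs per cell barcode for each lane, unnormalized, made with Cell Ranger 3.1.0 on the mm10 (GRCm38) mouse reference from 10x 3' libraries. Counts of 28692 genes and of the 111 antibodies shared by all lanes were used, and pooled matrices that repeat the lanes were not. The cells, gene lists and comparisons were chosen with earlier results of these data known. No cell was removed as a doublet: doublets were scored by nearest neighbors of simulated ones (2000 genes, 30 principal components, 0.8% per 1000 barcodes called) and left out in an alternative.

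UMIs were summed over cells per mouse and gate and tested in edgeR 4.0.16 (R 4.3.3; glmQLFit and glmQLFTest, TMM, filterByExpr for RNA only, adjusted p under 0.05), in mice with at least 10 cells. Log2 fold changes are given ± SE, CPM and values per 10000 antibody UMIs as mean ± SD over mice. Gates against each other had mouse as a block; lineages had family as a covariate, and the test of the lineage-by-family interaction could not be fitted, since only OT-I among CD8-fated mice had enough cells. Comparisons of OT-II, OT-I, MHCI-/- and AND with wild-type mice, by group means over 13 mice, were added after the numbers of cells were seen. The expected share after thinning to 1500 UMIs was computed in closed hypergeometric form, leaving out shallower cells. Shares were tested by exact permutation over mice, and intervals and limits cover counting error only.

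DESeq2 1.42.0, other scalings, filters and subsets of cells or mice served as alternatives. Python 3.11.15, scipy 1.17.1, scikit-learn 1.9.0, pandas 2.3.3 and matplotlib 3.10.9 were used. Fits were tested on simulated counts with known changes; for RNA of OT-II against wild-type mice 12.7%, 66.2% and 89.2% of changes of 1, 2 and 4 on the log2 scale were recovered, and for antibodies between gates 100% at 1 and at 2. For OT-II against OT-I antibodies it was 27.3% and 81.8%.

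Named genes were fixed markers of lineage, signaling and migration and up to 4 called genes of each of 7 lists. The 8 called genes with the largest change in each direction with at least 20 CPM in 1 group were also named. TCR, *B2m*, *Rag1*, H2- and mt- genes were left out of these 8. *Id2*, *Il2rb*, *Sox13*, *Tcrg-C1*, *B2m*, *Trac*, *Trdc*, *Trbc1*, *Trbv12-1*, *Ctss*, *H2-Aa*, *H2-Ab1*, *H2-Eb1* and wild-type levels of further list members were chosen after their values were seen. Named antibodies were 10 fixed ones and up to 5 called in each direction at 5 or more per 10000.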

Additional observations from a re-analysis of the deposited data

Results flagged for a closer look

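In 29 groups of 4 to 10 mice, thinned shares and other summary values were examined for a single mouse far from the rest, and 4 groups held one; chance gives about 1 in 20. Of these, 3 were B6 5, the shallower of the unsorted wild-type mice. A *Gata3* UMI was expected in 46.6% of its immature CD4-committed cells, against 25.2% to 30.8% in the other wild-type mice, a *Cd8a* UMI in 12.4% against 4.22% to 5.13%, and a *Rag1* UMI in 36.5% against 0.187% to 1.95%. These moved with its preselection DP genes, which summed to 664 CPM; their part in the *Gata3* value was not tested. Among CD4-fated mice, *Nkg7* was expected in 0.688% of the cells of AND 1 and in 0 to 0.133% in the others, below the 9.57% seen in its own preselection DP cells. Without thinning *Nkg7* was found in 1.96% of the 51 cells of AND 1, so few cells carried the value.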

How the results depend on the processing

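The difference of 1.38 percentage points in the share of cells between CD4-fated and CD8-fated mice kept its direction and its side of the threshold under every alternative tried, and without each mouse it ran from 1.17 to 1.52. For the counts of antibodies called against the other 3 gates, the alternatives with mouse kept as a block stayed within 1.5 times of the main count. Between late and early cells (6 called) they did not: 3 were called when scaled by total antibody UMIs, 1 without MHCI-/- 1 and 2 without MHCI-/- 2. Without mouse as a replicate block the counts were 17 (signaled DP), 9 (mature CD4), 3 (immature CD8) and 2 (late against early). Counts in comparisons of 2 mice per group moved readily, and the causes were not tested.

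For OT-II against OT-I in RNA (8 genes), the count was 58 with no low-count filter (more genes tested), 78 with mice of at least 50 cells, 1 with no family covariate, 23 with at least 2 *Zbtb7b* UMIs, 4 without cells rich in myeloid or B cell UMIs, and 6 to 26 without each mouse; for antibodies (0) it was 2 with DESeq2 and 0 to 5 without each mouse. Replicate numbers were shared by the groups, and in OT-II and OT-I mice they ran with depth. Same-numbered OT-II and OT-I mice deviated together in RNA (r = 0.559 over 3547 genes) and weakly in antibodies (r = 0.116 over 110). The labels do not say what a number marks, so the main fits did not take the numbers as a pairing. Whether such a block is needed cannot be told from 2 pairs. With a replicate block edgeR called 84 genes and 12 antibodies, CD62L (-1.21, adjusted p = 0.000115) and CD25 (1.72, adjusted p = 0.000175) among them. For shares of cells with a UMI, the block kept only same-numbered OT-II and OT-I mice and left out the AND and MHCI-/- mice. The OT-II minus OT-I shares were opposite in direction to the main CD4-fated minus OT-I shares for *Cd40lg* (-5.40), *Rag1* (0.703), *Ccr7* (-1.84), *Il7r* (-11.3) and *Nr4a1* (1.68). These turns came with a change of mice, and the main values for none of these genes passed the test.

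Against wild-type mice, DESeq2 called 9 genes for OT-II, 8 for OT-I and 8 for AND, and 7, 4, 8 and 36 antibodies for OT-II, OT-I, MHCI-/- and AND. With no low-count filter 65, 35, 6 and 31 genes were called for OT-II, OT-I, MHCI-/- and AND. OT-II had 7 genes without cells rich in myeloid or B cell UMIs, and MHCI-/- had 2 without called doublets. Scaling by total antibody UMIs called 9, 5 and 59 antibodies for OT-II, OT-I and AND and 3 between late and early cells. Without each mouse the genes called ran from 2 to 30 (OT-II), 1 to 5 (OT-I), 0 to 1 (MHCI-/-) and 3 to 6 (AND), and the antibodies from 1 to 4, 2 to 4, 0 to 9 and 8 to 51. Without each mouse, antibodies called ran from 26 to 38 against signaled DP, 22 to 26 against mature CD4, 13 to 21 against immature CD8 cells and 1 to 6 between late and early cells.

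The CD8a-low difference between CD4-fated and OT-I mice turned to 12.9 with a threshold 1/4 of the way and ran from -16.7 to 0.392 without each mouse; that between wild-type and CD4-fated mice ran from 22.1 to 26.3. Among shares of cells with a UMI, *Cd4* turned to 0.420 with the filters on antibody counts (1000 to 10000 UMIs, 70 antibodies) and *Il7r* to -1.98 without thinning. Without each mouse *Cd40lg* ran from -3.36 to 10.0, *Cd4* from -2.30 to 2.06, *Cd8a* from -2.13 to 1.31, *Rag1* from -0.728 to 0.354, *Il7r* from -3.56 to 3.82 and *Nr4a1* from -3.38 to 1.25. Under alternatives other than leaving out 1 mouse, the values of genes and antibodies named as called stayed on the same side in 450 cases and lost the call in 57 (594 and 107 when 1 mouse was left out). Shares of cells with a UMI kept their direction in 53 and turned in the 7 given here, those of the replicate block included. Among values that were not called, OT-II against OT-I turned with no family covariate for *Il7r* (-1.01 to 0.37), CD8a (0.37 to -0.38) and CD4 protein (-0.05 to 0.09), and CD25 in OT-I against wild-type turned when scaled by total antibody UMIs (0.49 to -0.12). Depth limits the RNA tests, which rest on 38 to 187 cells a mouse. Late against early cells in wild-type mice alone was not run, since 1 mouse had enough of both.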
